A study of Mus musculus with 15 samples.

Results

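Mast-cell-rich and mast-cell-poor tumours were set apart within the B6 group of a mouse mammary tumour series, by the level of 1 mast cell transcript. The members were the 8 B6 arrays of 15 arrays in all, ranked by the log2 signal of the chymase gene Mcpt4 relative to the 75th percentile of the array. The 4 highest were taken as mast-cell-rich and the 4 lowest as mast-cell-poor. All 8 were spontaneous mammary tumours of MMTV-PyMT transgenic mice on the B6 (C57BL/6) background at 20 weeks of age, in which the mouse mammary tumour virus promoter drives the polyoma middle T oncogene in mammary epithelium. The other 7 arrays were MMTV-PyMT tumours of Wsh mice at 20 weeks. Wsh is the usual name of mice with the Kit W-sh allele, which lack mast cells as adults, and their values are given beside the B6 values as levels only. Both B6 groups carry the same labels, so no label separates them, and the groups are not the study's own. Each array was 1 tumour, and the labels do not say whether tumours shared a mouse, and the p-values then reflect only how these tumours varied.

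Mast cells are tissue-resident granulated immune cells that depend on the stem cell factor receptor Kit and settle around vessels, nerves and fat. Their granules hold proteases (chymases, tryptases and carboxypeptidase A3), histamine and heparin, which are released on activation through the IgE receptor and other receptors. In mammary tissue they lie mostly in the stroma and the fat pad. In bulk tumour RNA, fewer cells of a type and less RNA per cell cannot be told apart.

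The sequences just before the start of the 3 protease genes used as mast cell markers are printed because Mcpt4 formed the groups and Cma1 and Cpa3 are the other 2 markers described with it. They are the 250 bases before the RefSeq start (build GRCm38.p6, each gene on the minus strand, printed 5′ to 3′ in the direction of transcription). Capitals mark GATAA or its reverse complement TTATC, the core letters bound by GATA factors, of which Gata2 is a mast cell regulator. The printed windows lie at chr14:56062311-56062560 for Mcpt4, chr14:55944676-55944925 for Cma1 and chr3:20242182-20242431 for Cpa3.
Mcpt4: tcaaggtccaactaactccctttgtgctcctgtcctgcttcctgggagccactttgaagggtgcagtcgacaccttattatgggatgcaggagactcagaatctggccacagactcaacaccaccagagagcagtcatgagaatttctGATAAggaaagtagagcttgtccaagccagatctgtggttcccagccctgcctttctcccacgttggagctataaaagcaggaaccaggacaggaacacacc
Cma1: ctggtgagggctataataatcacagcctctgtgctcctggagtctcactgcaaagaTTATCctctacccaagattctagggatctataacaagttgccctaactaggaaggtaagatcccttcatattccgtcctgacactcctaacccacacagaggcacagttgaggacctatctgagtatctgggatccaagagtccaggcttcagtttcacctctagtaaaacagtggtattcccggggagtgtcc
Cpa3: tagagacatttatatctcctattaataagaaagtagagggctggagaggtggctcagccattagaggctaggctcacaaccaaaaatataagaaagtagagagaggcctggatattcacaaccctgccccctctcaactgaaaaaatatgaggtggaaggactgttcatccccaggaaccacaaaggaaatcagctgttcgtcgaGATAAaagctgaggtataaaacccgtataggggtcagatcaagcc
Each window held 1 match, 102 bases before the start in Mcpt4, 194 in Cma1 (as TTATC) and 45 in Cpa3. At least 1 match on either strand was found in 22.6% of the 32851 RefSeq windows of this length, so these matches are a description and not shown to be binding sites.

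The groups were chosen by the level of Mcpt4, a connective tissue mast cell chymase, which is given without a test. Its log2 level was 1.83, 1.74, 0.53 and -0.22 in the mast-cell-rich tumours (B6 replicates 4, 7, 2 and 6) and -0.77, -1.66, -2.56 and -4.48 in the mast-cell-poor tumours (replicates 1, 5, 8 and 3). Values of B6 tumours are given in these 2 orders throughout. The tumours on either side of the boundary, at -0.22 and -0.77, were closer to each other than most other neighbours in the order, so the boundary cuts a graded range. The Mcpt4 probe passed the background flag in all 8 B6 tumours. In none of the 7 Wsh tumours did it do so, and there it read -8.21 to -6.94. Ranking by the mean of Cma1 and Cpa3 in place of Mcpt4 gave the same 4 and 4 tumours. Each slide held 2 tumours of each group, so slide and group were balanced.

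Of 22262 genes tested besides Mcpt4, 0 differed between the 4 mast-cell-rich and 4 mast-cell-poor tumours at an adjusted p of 0.05 (limma with Benjamini-Hochberg adjustment; the lowest adjusted p was 0.197). At an unadjusted p of 0.05 limma gave 3663 genes (16.5%), of which 1660 were higher in the mast-cell-rich tumours (7.46%) and 2003 lower (9%). The 4 and 4 arrays did not overlap for 2080 genes (9.34%), 748 higher (3.36%) and 1332 lower (5.98%). A log2 difference over 1 in size was seen in 361 of the 748 higher and 90 of the 1332 lower genes. The median log2 difference over all genes was -0.06, and 41.2% of genes lay above 0. Since no gene passed, differences between the 2 groups are given as values below, with all adjusted p-values between 0.197 and 0.976 for the genes named.

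A fit of each gene on the Mcpt4 level itself, over the same 8 tumours, called 1155 genes (5.19%), of which 928 rose with Mcpt4 (4.17%) and 227 fell with it (1.02%). This fit uses the distance between tumours, where the 4 against 4 comparison treats replicates 6 and 1, at the boundary, as opposites. The count was 572 without replicate 7 and 585 without replicate 4, the 2 tumours of highest Mcpt4, and at most 1205 with any array left out. The falling calls rested most on these 2 tumours, with 539 rising and 33 falling without replicate 7 and 543 rising and 42 falling without replicate 4. Called with all 8 arrays and in each of the 8 fits with an array left out were 416 genes, 402 of the 928 rising and 14 of the 227 falling. Of the 1155 genes, 437 also had 4 and 4 arrays that did not overlap, beside 9.34% of all genes. Leaving out the middle tumours, the 3 highest against the 3 lowest gave 503 of 22262 genes, 475 higher and 28 lower. Of the 503, 329 were among the 1155. Below, a gene is said to rise or fall only where it passed the fit on the Mcpt4 level, with its slope as the log2 change per log2 unit of Mcpt4. A risen or fallen gene given with no further remark was also called in each of the 8 leave-out fits, and for the others the number of those fits that called it is given. Counts of rising and falling members are to be read beside the 4.17% and 1.02% of all genes.

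The mast cell chymases and carboxypeptidase A3 followed Mcpt4 closely. Cpa3, the carboxypeptidase stored with chymase in the granule, read 0.85, 0.43, -0.84 and -1.32 in the mast-cell-rich tumours and -3.18, -4.47, -5.22 and -7.20 in the mast-cell-poor ones. Its order over the 8 tumours was that of Mcpt4, and the groups did not overlap. The log2 difference was 4.80 (SE 0.84, limma adjusted p 0.197), and Cpa3 rose with Mcpt4 with a slope of 1.31 (SE 0.07, limma adjusted p 0.000268). In replicate 3 Cpa3 lay within the Wsh range of -7.92 to -7.01, and its probe was well above background on 3 of 4 mast-cell-poor and 0 of 7 Wsh arrays.

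Cma1, the chymase named as mast cell protease 5 in mice, read 1.23, 0.88, -0.26 and -1.04 against -2.23, -2.76, -3.30 and -4.94. Again the tumours kept the order of Mcpt4 and did not overlap. The log2 difference was 3.51 (SE 0.67, limma adjusted p 0.197), and the slope on Mcpt4 was 0.98 (SE 0.05, limma adjusted p 0.000268). The lowest B6 tumour stayed above the 7 Wsh tumours, at -7.85 to -5.91. Cma2, a chymase gene beside Cma1, read 0.76, 0.54, -0.45 and -1.15 against -1.42, -2.0, -2.53 and -2.95. The Cma2 groups did not overlap either, and its slope was 0.61 (SE 0.06, limma adjusted p 0.00121), but its probe was well above background on all 7 Wsh arrays, at -3.44 to -2.29. Cma1, Cma2 and Mcpt4 are close relatives, and whether their probes read each other's transcripts was not tested.

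The tryptases did not move as a group. Tpsg1, the membrane-bound tryptase, read -2.95, -2.90, -4.24 and -5.05 against -5.79, -6.98, -5.11 and -7.08, without overlap, and rose with Mcpt4 (slope 0.65, SE 0.13, limma adjusted p 0.0238), but not without replicate 3, 4 or 7 (5 of 8 leave-out fits). The margin was narrow, since replicate 8 was just below replicate 6, and the probe was well above background on 3 mast-cell-rich arrays, 1 mast-cell-poor array and 0 of 7 Wsh arrays. Tpsb2, a secreted tryptase, read -0.53, -0.44, -1.13 and -1.29 against 1.0, -1.75, -1.45 and 1.22. Here the highest 2 of the 8 tumours, replicates 1 and 3, were in the mast-cell-poor group, and replicate 3 had the lowest Mcpt4. The log2 difference was -0.61 (SE 0.69, limma adjusted p 0.681), and Wsh tumours read -2.14 to -0.45. Ctsg, cathepsin G, was well above background on 1 mast-cell-rich and 3 mast-cell-poor arrays and differed by 0.07 (SE 0.72). Of 11 listed proteases 6 were measured besides Mcpt4, with a median difference of 2.31. Of the 6, 4 were higher without overlap (3.36% of all genes), and 4 were called as rising (4.17%). That median was 0.80 with no filter on dim probes and 0.77 with only probes detected on all 8 B6 arrays, because the set of measured proteases changes.

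**Figure D1:**
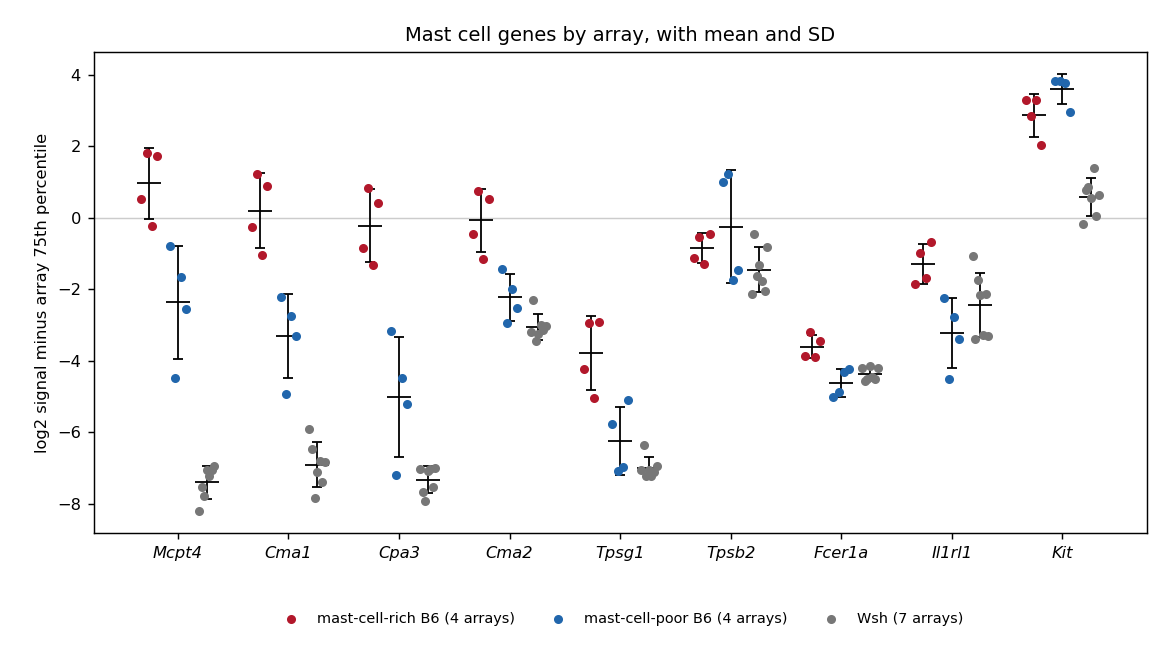
Log2 level of 9 mast cell genes relative to the 75th percentile of each array, in mast-cell-rich B6, mast-cell-poor B6 and Wsh tumours (points are arrays, bars are mean and SD). Mcpt4 chose the groups; Cma1, Cpa3 and Cma2 do not overlap between the B6 groups, while Tpsb2 and Kit do.

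Receptors and mediator enzymes of mast cells were mixed. Of 12 measured members (of 15 listed), 10 were above 0 (41.2% of all genes). On the higher side 4 were without overlap (3.36% of all genes), and 5 rose with Mcpt4 (4.17%). Il1rl1, the receptor of an alarmin cytokine, read -0.97, -0.69, -1.86 and -1.67 against -2.24, -2.78, -3.38 and -4.50, and rose with a slope of 0.58 (SE 0.04, limma adjusted p 0.000632). The groups did not overlap, but a second Il1rl1 probe differed by -0.02, and Wsh tumours reached -1.08. Alox5, which starts leukotriene synthesis, read -1.10, -0.97, -2.28 and -1.78 against -2.52, -3.18, -3.39 and -4.94, again without overlap, and rose with a slope of 0.59 (SE 0.05, limma adjusted p 0.00104). Alox5ap, the protein that presents arachidonate to Alox5 (slope 0.32), Ltc4s, which makes leukotriene C4 (slope 0.47), and Hdc, which makes histamine (slope 0.45), also rose. Alox5ap was called in 7 of 8 leave-out fits, not without replicate 3, and Hdc in 6, not without replicate 3 or 8. Wsh tumours overlapped both B6 groups in these genes, with maxima of -0.56 for Alox5, 1.92 for Alox5ap, 1.80 for Ltc4s and -1.03 for Hdc.

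Genes of the high-affinity IgE receptor did not pass the fit on Mcpt4. Fcer1a, the IgE-binding chain, read -3.21, -3.44, -3.87 and -3.89 against -5.01, -4.31, -4.24 and -4.89, without overlap (log2 difference 1.01, SE 0.24, limma adjusted p 0.197), and its slope did not pass (limma adjusted p 0.076). Fcer1g, the signalling chain shared with many myeloid cells, differed by 0.27 (SE 0.32), and the prostaglandin enzyme Hpgds by -0.04 (SE 0.34). The granule monoamine transporter Slc18a2 differed by 0.45 (SE 0.25), and the serotonin enzyme Tph1 by 1.29 (SE 0.93). Ms4a2 and the Mrgprb1 and Mrgprb2 receptors did not pass the filter on dim probes.

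Kit, the receptor on which mast cells depend and which luminal progenitor cells of the mammary gland also express, did not follow Mcpt4. It read 2.87, 2.03, 3.29 and 3.30 in the mast-cell-rich tumours and 3.84, 3.77, 2.97 and 3.84 in the mast-cell-poor tumours. The mast-cell-poor tumours were mostly the higher ones, with overlap through replicate 8 (log2 difference -0.73, SE 0.33, limma adjusted p 0.308). Between the same groups, 2 further probes of Kit differed by 0.04 and 0.07. All 8 B6 tumours were above the Wsh range of -0.18 to 1.40. Kitl, the ligand of Kit, read 0.87, 0.74, 0.58 and 0.97 against 1.0, 0.56, 0.65 and 1.04, a difference of -0.02 (SE 0.16). Kitl was named after its values were seen. Of 12 measured growth factors and attractants of mast cells, 6 were above and 6 below 0 with a median difference of 0.03. Of the 12, 2 rose (4.17% of all genes), Ccl11 (eotaxin, slope 0.46) and Tslp (slope 0.42, called in 1 of 8 leave-out fits).

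Among regulators and granule matrix genes, the transcription factor Gata2 read -2.04, -2.49, -2.85 and -3.17 against -3.19, -3.93, -3.80 and -3.82 and rose with Mcpt4 (slope 0.28, SE 0.05, limma adjusted p 0.0206), but not without replicate 4 or 7 (6 of 8 leave-out fits). The groups met almost without a gap, between replicates 6 and 1. Mitf, another mast cell transcription factor, was without overlap (log2 difference 0.73, SE 0.22, limma adjusted p 0.201), but its slope did not pass. Srgn, the core protein of granule proteoglycans, differed by 0.29 (SE 0.26), the heparin enzyme Ndst2 by 0.01 (SE 0.14), Stat5a by 0.07 and Stat5b by 0.15. Over the 8 measured members the median difference was 0.22, and 1 was called as rising (4.17% of all genes).

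The largest difference by list median was in genes of white adipocytes, at 2.67 over 14 of 14 measured members, against -0.06 over all genes. All 14 lay above 0, 8 did not overlap (against 3.36% of all genes higher without overlap), and 11 rose with Mcpt4 (against 4.17%). Adipoq, the fat cell hormone adiponectin, read 4.89, 5.75, 3.42 and 3.03 in the mast-cell-rich tumours and 1.92, 1.08, 0.36 and -3.55 in the mast-cell-poor tumours. The groups did not overlap, and Adipoq rose with a slope of 1.33 (SE 0.08, limma adjusted p 0.00035), next to the slope of Cpa3. Cd36, a fatty acid transporter, read 2.40, 3.18, 0.81 and 0.26 against -0.41, -1.59, -1.55 and -3.04, with a slope of 0.94 (SE 0.08, limma adjusted p 0.00116). Lpl, lipoprotein lipase, rose with a slope of 0.85, and Lipe, hormone-sensitive lipase, with 0.58. All 11 called members, these 4 among them, were called in each of the 8 leave-out fits.

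The mean level of the 14 adipocyte genes was 3.80, 4.51, 2.73 and 2.27 in the mast-cell-rich tumours and 2.01, 1.26, 1.01 and -1.23 in the mast-cell-poor tumours, without overlap. The median difference was 1.93 without replicate 3, the tumour of lowest level, and 3.17 without replicate 1. In Wsh tumours, where Mcpt4 was not well above background, the adipocyte mean ran from 1.48 to 4.25. That range held 3 of the 4 mast-cell-rich tumours and 1 mast-cell-poor tumour, replicate 1, while the other 3 mast-cell-poor tumours lay below it and replicate 7 above it. Adrb3, the beta-3 adrenergic receptor of fat cells, outside the rule and named after its values were seen, read 3.25, 4.66, 2.15 and 1.10 against 0.46, -0.47, -0.81 and -4.76 (slope 1.30, limma adjusted p 0.000777). The brown fat list had a median of 1.03 over 6 of 8 members, with Cidea rising (slope 0.54, called in 3 of 8 leave-out fits). The part of adipocyte content in the other differences was not tested.

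**Figure D2:**
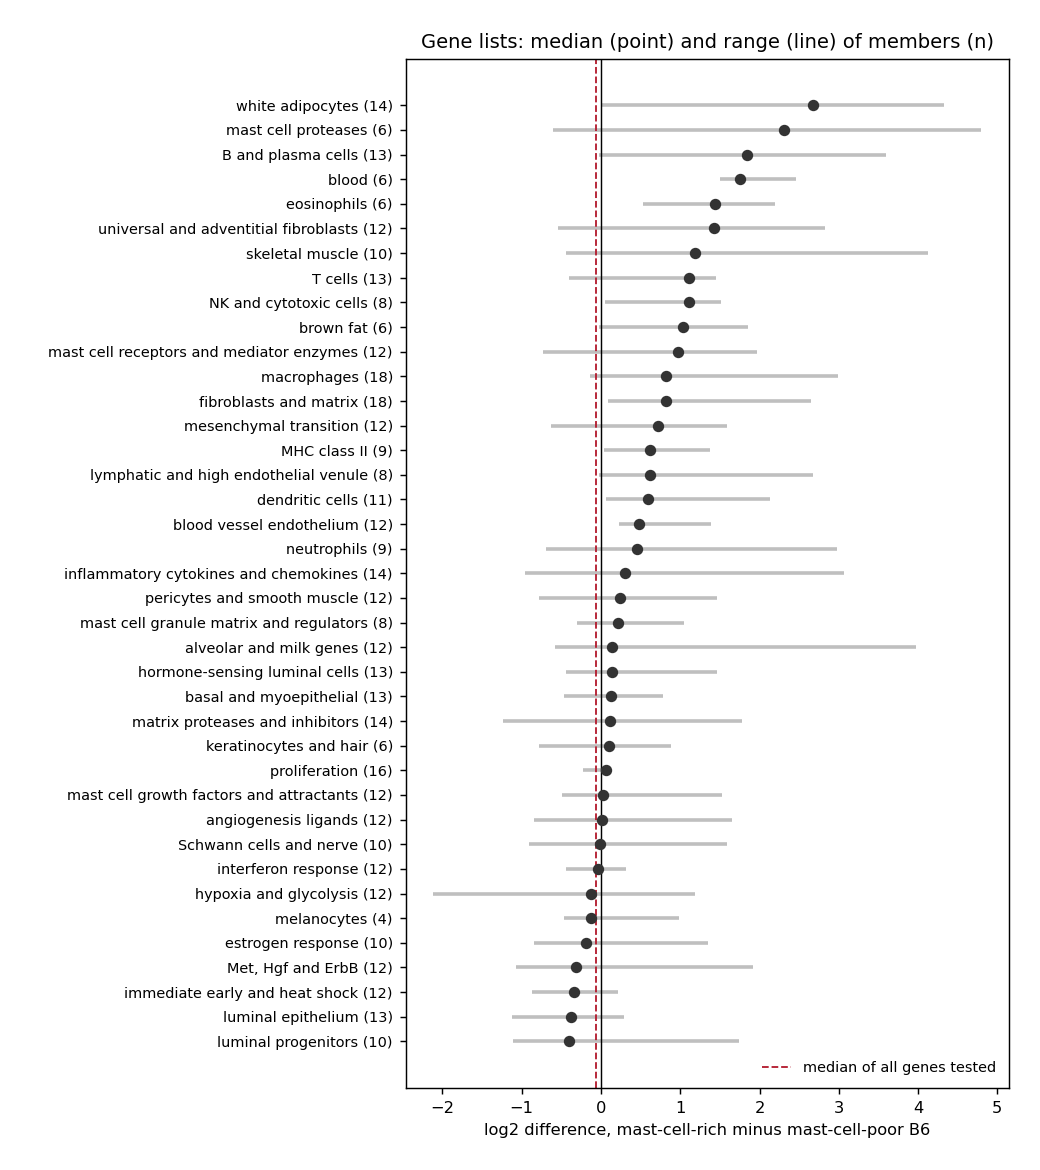
Median (point) and range (line) of the log2 difference, mast-cell-rich minus mast-cell-poor B6, over the measured members of each gene list with at least 4 (number in brackets); the dashed line is the median of all genes tested, -0.06. White adipocytes and mast cell proteases lie at the top, luminal epithelium and luminal progenitors at the bottom.

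Fibroblast genes were above 0 in 18 of 18 members (41.2% of all genes), with a median difference of 0.82, and 14 rose with Mcpt4 (4.17% of all genes), 7 of them in each of the 8 leave-out fits. Dpt, dermatopontin, read 1.88, 1.56, -0.01 and -0.34 against -0.43, -2.01, -2.30 and -2.76, with the groups meeting at replicates 6 and 1 (slope 0.76, SE 0.08, limma adjusted p 0.00179). Lum, the collagen-binding proteoglycan lumican, rose with a slope of 0.52, Fap, fibroblast activation protein, with 0.42, and the PDGF receptor Pdgfra with 0.33. The other 10 called members included the fibrillar collagen genes Col3a1, Col1a2 (called in 5 of 8 leave-out fits) and Col1a1 (in 1 of 8). The list mean was 3.47, 3.45, 2.79 and 2.71 against 2.76, 1.98, 1.89 and 1.66, where replicate 1 lay among the mast-cell-rich tumours, and Wsh tumours ran from 1.73 to 3.58.

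Adventitial fibroblast markers had a median of 1.43, with 11 of 12 above 0 and 8 called as rising (4.17% of all genes), 5 of them in each of the 8 leave-out fits. Penk, proenkephalin, read 2.04, 2.02, 0.95 and 0.69 against 0.42, -0.35, -0.77 and -1.54 in the order of Mcpt4 (slope 0.58, SE 0.04, limma adjusted p 0.00035). Efemp1, the extracellular matrix protein fibulin-3, read 3.53, 3.85, 1.75 and 1.77 against 1.37, -0.12, -0.12 and -1.06 (slope 0.78, SE 0.08, limma adjusted p 0.00152). Gsn, the actin-severing protein gelsolin, and Cd34 also rose, with slopes of 0.45 and 0.28, Cd34 in 5 of 8 leave-out fits. None of these 4 genes overlapped between the groups (3.36% of all genes were higher without overlap).

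Genes linked to mesenchymal transition, which fibroblasts also express, had a median of 0.71. Of 12, 9 were above 0 and 3 were called as rising (4.17% of all genes), Twist2 (slope 0.48), Zeb2 (slope 0.33) and S100a4. S100a4, with a slope of 0.19 (limma adjusted p 0.0407), was called in 0 of 8 leave-out fits. Prrx1 and Zeb1, transcription factors, were higher without overlap (3.36% of all genes). Neither passed the fit on Mcpt4 (limma adjusted p 0.0534 and 0.134). On the lower side 1 of the 12 was without overlap (5.98% of all genes).

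Of 12 blood vessel endothelial genes, all 12 were above 0 with a median of 0.47, and 3 were higher without overlap (3.36% of all genes). With Mcpt4 4 rose (4.17% of all genes), 1 of them, Tek, in each of the 8 leave-out fits. Egfl7, secreted by endothelium, read 3.07, 3.27, 3.11 and 3.01 against 2.58, 2.24, 2.29 and 2.22 (slope 0.18, SE 0.04, limma adjusted p 0.03, called in 4 of 8 leave-out fits). The 2 groups formed narrow separate bands, with Wsh between 2.52 and 3.73. Tek, the angiopoietin receptor, rose with a slope of 0.42, and Pecam1 and Vwf were called as rising in 1 of 8 leave-out fits each. Among 12 angiogenesis ligands the median was 0.01, with 6 on each side. Vegfd rose (slope 0.52, SE 0.07, limma adjusted p 0.00482), reading 0.62, 0.29, -0.69 and -1.37 against -0.74, -1.98, -2.49 and -2.56. Fgf1 fell (slope -0.26, SE 0.04, limma adjusted p 0.00498), reading 1.67, 1.43, 2.10 and 2.31 against 1.99, 2.51, 2.65 and 3.29. For both ligands replicate 1 lay within the mast-cell-rich range.

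Haemoglobin and platelet genes, markers of blood in the sample, were higher on balance, with a median of 1.75 over 6 of 6 measured members (8 listed). Of these, 2 rose with Mcpt4 (4.17% of all genes). Pf4, a platelet chemokine also made by some macrophages, read 3.0, 3.19, 1.64 and 1.84 against 1.36, 0.67, 0.30 and -0.45 and rose (slope 0.57, SE 0.05, limma adjusted p 0.00113). Hbb-bt read 4.44, 5.49, 3.98 and 5.28 against 4.0, 2.44, 1.58 and 2.50, overlapping through replicate 1, and its slope did not pass (limma adjusted p 0.068). Hbb-b1 was the other called member, with a slope of 0.62 (limma adjusted p 0.0469), in 1 of 8 leave-out fits. The haemoglobin genes share sequence, so their probes may not be separate measures.

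Macrophage genes were above 0 in 16 of 18 members with a median of 0.82, and 9 rose with Mcpt4 (4.17% of all genes), 4 of them in each of the 8 leave-out fits. Mrc1, the mannose receptor of tissue macrophages, read 2.12, 1.53, 0.87 and 1.15 against 0.59, 0.13, 0.14 and -1.29, without overlap (slope 0.46, SE 0.05, limma adjusted p 0.00191). Adgre1, a common macrophage surface marker, rose with a slope of 0.28 and Cd163, a haemoglobin scavenger receptor, with 0.43. Folr2 also rose, as did the complement genes C1qb (7 of 8 leave-out fits) and C1qa (5 of 8), Lyve1 (6 of 8), Mertk (3 of 8) and Timd4 (2 of 8). The list mean of 1.61, 1.33, 0.87 and 0.62 against 1.10, 0.16, -0.30 and -0.49 overlapped through replicate 1, and Wsh ran from 0.03 to 1.89.

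2 genes of alternatively activated macrophages, outside the rule and named after their values were seen, had steep slopes. The macrophage list also holds genes of that state, of which Mrc1 and Cd163 rose and Arg1 was not called. Retnla, a secreted resistin-like protein, read 5.92, 5.51, 4.01 and 4.28 against 4.15, 2.71, 1.98 and 0.16 (slope 0.86, SE 0.06, limma adjusted p 0.000777). Ccl24, an eosinophil attractant, read 0.66, 0.15, -2.25 and -2.08 against -2.26, -2.97, -4.23 and -6.19 (slope 0.99, SE 0.08, limma adjusted p 0.000942). Retnla overlapped through replicate 1, and the Ccl24 groups all but met.

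Eosinophil genes had a median of 1.44 over 6 of 6 measured members (8 listed), 4 higher without overlap (3.36% of all genes) and 3 rising (4.17%). Besides Siglecf these were Ear6 (7 of 8 leave-out fits) and Ccr3 (3 of 8). Siglecf, an eosinophil lectin, read -3.39, -4.19, -4.32 and -4.67 against -4.81, -5.43, -5.93 and -6.07 (slope 0.40, SE 0.05, limma adjusted p 0.00345). Ear2, an eosinophil ribonuclease that macrophages can also express, read 1.96, 1.13, 1.07 and 1.12 against 0.63, -1.48, -1.34 and -0.64, with a slope that did not pass (limma adjusted p 0.0566). The Ear genes are close copies whose probes may share signal. The granule genes Prg2 and Epx did not pass the filter on dim probes.

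Of 9 measured neutrophil genes, 2 rose (4.17% of all genes), with a list median of 0.45. Retnlg, a resistin-like gene of neutrophils, read -1.79, -2.11, -3.07 and -3.23 against -4.45, -4.66, -5.90 and -7.08 (slope 0.84, SE 0.05, limma adjusted p 0.000268), while Ltf, lactoferrin, which mammary epithelium also makes, differed by -0.69 (SE 0.25). The second call was Mmp9, a gelatinase (slope 0.39, limma adjusted p 0.0483), in 1 of 8 leave-out fits. Basophil genes gave 2 measured members of 5, with Mcpt8, Prss34 and Cd200r3 not passing the filter.

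Dendritic cell genes were above 0 in 11 of 11 measured members, with a median of 0.59 and 3 rising (4.17% of all genes). Clec10a, a lectin of dendritic cells and macrophages, read 2.97, 3.14, 1.96 and 2.22 against 1.45, 0.64, 0.33 and -0.64, and rose with a slope of 0.60 (SE 0.04, limma adjusted p 0.000777). Cd209a rose with a slope of 0.52 and Clec9a with 0.37 (4 of 8 leave-out fits). All 3 were higher without overlap (3.36% of all genes). Of the 9 class II antigen presentation genes 2 rose (4.17% of all genes), H2-Aa (slope 0.30, called in 7 of 8 leave-out fits) and H2-DMa (slope 0.31, in 6 of 8).

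Lymphocyte genes were higher on balance but mostly did not pass. T cell genes had a median of 1.11 over 13 measured members with 0 called on Mcpt4 and 0 without overlap. B and plasma cell genes had a median of 1.85 over 13, with 1 rising (4.17% of all genes). This was Irf4, which acts in plasma cells and dendritic cells (slope 1.0, SE 0.16, limma adjusted p 0.00874). The B cell list mean was -1.17, -0.11, -0.41 and -3.73 against -0.29, -3.07, -4.20 and -3.96, where replicate 6 was as low as the mast-cell-poor tumours and replicate 1 as high as the mast-cell-rich ones. Cytotoxic cell genes had a median of 1.11 over 8, with 3 rising (4.17% of all genes), namely Ifng, Klrd1 (6 of 8 leave-out fits) and Tbx21 (1 of 8). Gzma, granzyme A, had the smallest p of all genes between the groups, at 0.08, 0.44, 0.35 and 0.15 against -0.73, -1.08, -1.12 and -0.90 (log2 difference 1.21, SE 0.14, limma adjusted p 0.197). The 2 bands were tight and separate, but the slope on Mcpt4 did not pass (limma adjusted p 0.0583). Wsh tumours ran from -1.08 to 0.81.

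**Figure D3:**
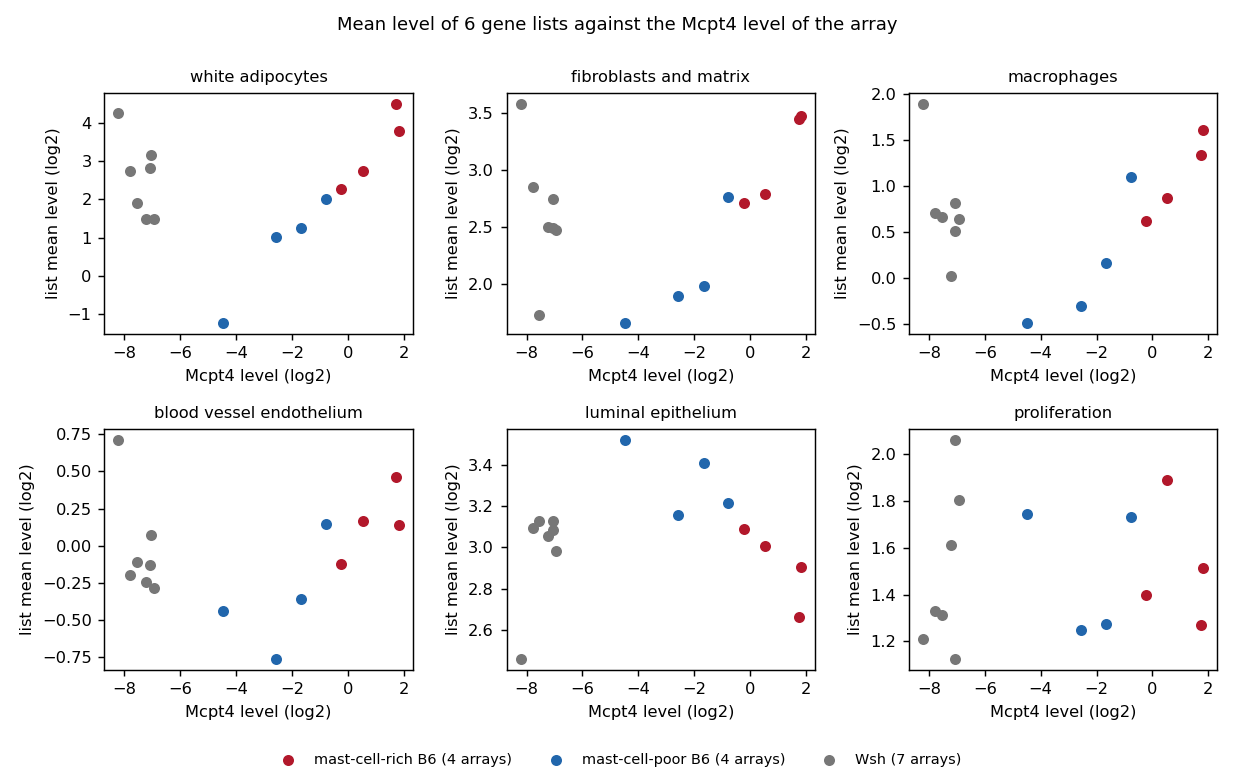
Mean log2 level of 6 gene lists against the Mcpt4 level of the same array, for 4 mast-cell-rich B6, 4 mast-cell-poor B6 and 7 Wsh arrays. Adipocyte means climb along the B6 arrays while those of Wsh, at the lowest Mcpt4, run from 1.48 to 4.25, and proliferation means overlap in all 3 groups.

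Luminal epithelial genes went the other way. The median difference was -0.38 over 13 genes, 12 of them below 0, and 2 did not overlap on the lower side, against 5.98% of all genes. The list mean was 2.90, 2.66, 3.0 and 3.09 in the mast-cell-rich tumours and 3.21, 3.41, 3.16 and 3.52 in the mast-cell-poor tumours, a narrow but complete separation, with Wsh at 2.46 to 3.13. Muc1, a mucin of the luminal surface, read 0.99, 0.14, 0.61 and 1.12 against 1.61, 1.30, 2.61 and 1.82 (log2 difference -1.12, SE 0.32, limma adjusted p 0.197). Ehf, an epithelial transcription factor, differed by -0.67 (SE 0.19) without overlap, and Elf3 by -0.72 (SE 0.20). No luminal gene was called on the Mcpt4 level (0 of 13).

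Luminal progenitor genes had a median of -0.40 over 10, and 2 fell with Mcpt4 (1.02% of all genes). Sox9, a transcription factor of progenitor cells, read -0.04, 0.20, 0.85 and 0.61 against 1.28, 1.55, 1.56 and 1.64, without overlap (log2 difference -1.10, SE 0.21; slope -0.27, limma adjusted p 0.0181), and its second probe differed by -1.11. It was called in 6 of 8 leave-out fits, not without replicate 4 or 7. Lypd3, with a slope of -0.19 (limma adjusted p 0.0483), was called in 1 of 8, and Sox10, also listed for Schwann cells, differed by -0.59 (SE 0.17). Rspo1, by contrast, was higher by 1.74 (SE 0.61) without overlap.

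Hormone-sensing luminal genes (median 0.13 over 13) and estrogen response genes (median -0.19 over 10) gave 0 calls on Mcpt4 and 0 genes without overlap. Esr1, the estrogen receptor gene, read 0.72, 1.27, 0.06 and -0.50 against -0.53, -0.28, -0.95 and -0.30 (log2 difference 0.90, SE 0.36, limma adjusted p 0.275), with the 4 other probes between 0.57 and 1.18. Pgr, the progesterone receptor gene, read -2.40, -1.29, -1.92 and -1.10 against -1.77, -0.75, -1.43 and -0.98 (log2 difference -0.44, SE 0.33). Both overlapped between the groups. Pgr, like Met and Mki67 below, lies outside the rule and was named after its values were seen.

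Milk genes had a median of 0.14 over 12, with 2 rising (4.17% of all genes). Olah was called in 6 of 8 leave-out fits, and Csn1s2a (limma adjusted p 0.048), which was high in replicate 7, in 1 of 8. Basal genes had a median of 0.13 over 13 with 0 without overlap, and 1 fell (1.02% of all genes), the integrin gene Itga6 (slope -0.17, in 2 of 8 leave-out fits). Proliferation genes had a median of 0.06 over 16 and 0 calls. Mki67, the proliferation antigen, read 3.37, 2.96, 3.73 and 3.0 against 3.45, 2.85, 2.88 and 3.64, a difference of 0.06 (SE 0.25). Interferon response genes had a median of -0.03 over 12 with 0 calls.

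The growth factor receptor list around Met and ErbB had a median of -0.31 over 12 measured members, with 2 rising (4.17% of all genes) and 1 falling (1.02%). Met, the receptor of hepatocyte growth factor, read 2.07, 1.83, 2.19 and 2.37 against 2.21, 2.77, 2.09 and 2.54, overlapping between groups (log2 difference -0.29, SE 0.19, but 0.24 with its probes averaged). Its ligand Hgf read -3.67, -3.45, -3.99 and -4.35 against -4.65, -5.14, -4.98 and -4.89, without overlap, and rose with Mcpt4 (slope 0.26, SE 0.05, limma adjusted p 0.0324, called in 3 of 8 leave-out fits). Hpse, heparanase, which cleaves heparan sulfate, read -0.29, -0.30, -0.97 and -1.87 against -1.11, -3.10, -3.49 and -3.42 and rose (slope 0.58, SE 0.09, limma adjusted p 0.00705). Among proteases that can activate Hgf, St14 (matriptase) differed by -0.61 (SE 0.18) and Hpn (hepsin) by -1.03 (SE 0.30), with neither slope passing. Erbb2, the receptor tyrosine kinase gene, fell with Mcpt4 (slope -0.20, called in 3 of 8 leave-out fits).

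Immediate early and heat shock genes were below 0 in 11 of 12, where 41.2% of all genes lay above 0. Their median was -0.34, with 2 lower without overlap (5.98% of all genes) and 0 calls. Hypoxia and glycolysis genes had a median of -0.12 over 12, beside -0.06 over all genes, and 2 were called as falling (1.02% of all genes). Ankrd37, induced by hypoxia, fell (slope -0.26, SE 0.04, limma adjusted p 0.00584), reading -2.78, -2.98, -2.57 and -2.74 against -2.29, -1.74, -1.84 and -1.29. Ndrg1, also hypoxia-induced, with a slope of -0.18 (limma adjusted p 0.0364), was called in 1 of 8 leave-out fits. Car9 gave the largest difference of the list in size, -2.12 (SE 0.66) with overlap, and a second probe gave -1.78. Its slope did not pass (limma adjusted p 0.0818). Bnip3, a mitochondrial gene of the same list, was higher, by 1.18 (SE 0.44) without overlap.

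Matrix protease genes had a median of 0.11 over 14, with 3 rising (4.17% of all genes) and 1 falling (1.02%). The stromelysin gene Mmp3 rose (slope 0.49) and the aggrecanase gene Adamts1 fell (slope -0.32). Each was called in 7 of 8 leave-out fits and not without replicate 4. Adamts5, of the same gene family as Adamts1, rose (slope 0.54, called in 5 of 8 leave-out fits). Mmp9, given above, was the other rising gene (1 of 8). Adamts1 read -0.94, -0.47, 0.14 and -0.31 against 0.42, 0.96, 0.81 and 1.16, without overlap. Skeletal muscle genes were high in 1 B6 tumour, replicate 4, with a list mean of 1.47, against -3.53 to -2.77 in the other 7. The list median over 10 genes was 1.18, and none of the 10 was without overlap or called.

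Some genes were picked for the smallest p between the groups among those whose 4 and 4 arrays did not overlap, so their separation follows from the choice. Npl, which degrades sialic acid, read -0.99, -0.89, -1.41 and -1.13 against -2.33, -2.24, -2.13 and -2.47 (log2 difference 1.19, SE 0.15) and rose with a slope of 0.26 (2 of 8 leave-out fits). Abcg2, a drug and urate transporter, read 1.79, 1.80, 1.63 and 1.89 against 1.17, 0.72, 0.91 and 1.02 (log2 difference 0.82, SE 0.14). Col26a1, a collagen gene, read -1.79, -2.19, -2.19 and -2.25 against -3.27, -6.14, -4.92 and -5.32, and rose with a slope of 0.66 (2 of 8 leave-out fits). Its probe was well above background on 2 of 4 mast-cell-poor arrays. Plekha4 (0.97), Myo1f, a myosin of immune cells (0.90), and Cd302, a lectin receptor (1.63), were also higher and rose, in 4, 6 and 2 of 8 leave-out fits. Armc2 was higher by 0.77, but its second probe differed by -0.43.

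On the lower side, Npy, the neuropeptide Y gene, gave the largest difference among these, at -6.77, -6.78, -4.45 and -4.60 against -1.51, -0.93, -2.21 and 0.20. It was well above background on 2 of 4 mast-cell-rich and 4 of 4 mast-cell-poor arrays, without overlap, and fell with a slope of -1.13 (SE 0.17, limma adjusted p 0.00688). Wsh tumours ran from -7.53 to 0.66. Smox, spermine oxidase, read 0.77, 0.33, 1.17 and 1.03 against 2.15, 2.25, 2.15 and 1.95, and a second probe gave -1.27, but its slope did not pass (limma adjusted p 0.0714).

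Kif26a, a kinesin-like gene, read -2.77, -2.38, -2.70 and -2.76 against -0.16, 0.50, -0.10 and -1.32 (log2 difference -2.38, SE 0.34). It was the 1 gene past the threshold when replicate 3 was left out, and its slope on Mcpt4 did not pass (limma adjusted p 0.23). Il20ra, a cytokine receptor chain, Gabra5 and Cntnap2 were well above background on 0 of 4 mast-cell-rich arrays and passed the filter through the mast-cell-poor arrays alone, so they had to be lower in the former and are listed with no fold. Of genes named after their values were seen, Slpi, a secreted protease inhibitor, read 2.20, 1.76, 2.84 and 2.57 against 3.23, 4.12, 4.98 and 4.81 and fell (slope -0.52, SE 0.07, limma adjusted p 0.00449). Brinp1 fell with a slope of -0.79, its probe well above background on 2 of 4 mast-cell-rich and 4 of 4 mast-cell-poor arrays. Esm1, an endothelial proteoglycan, fell with -0.58 (5 of 8 leave-out fits). Ptgs2, the inducible prostaglandin synthase, was without overlap and different by -3.01 (SE 0.95), with a slope that did not pass.

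**Figure D4:**
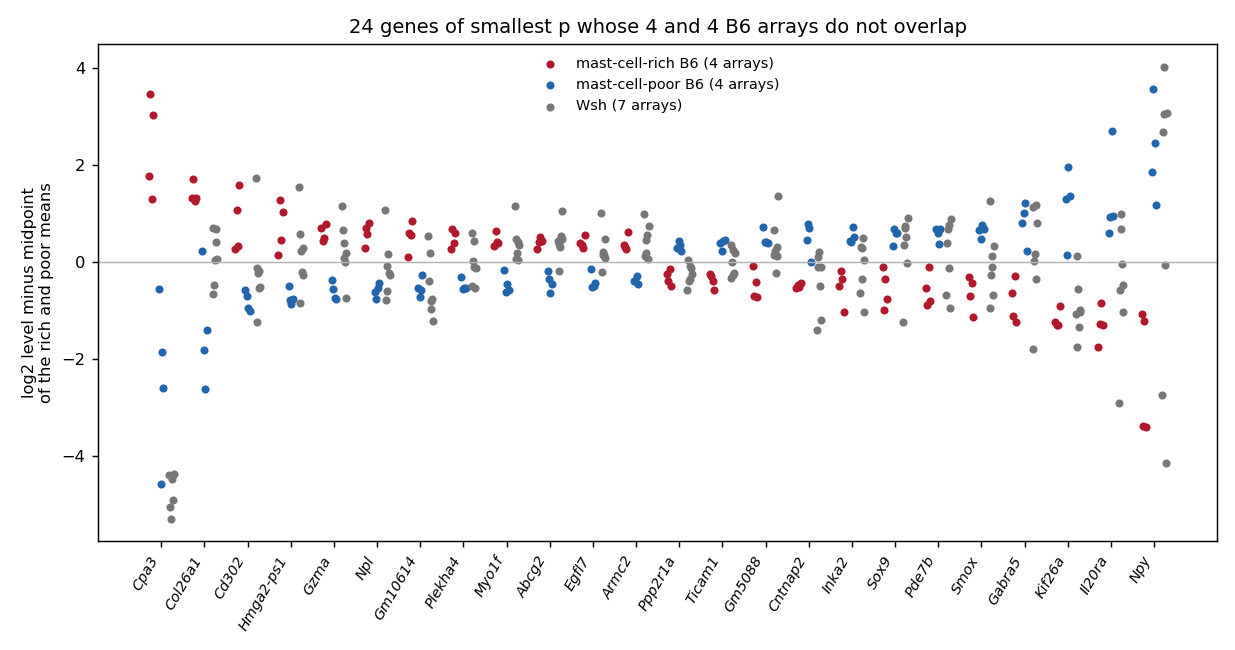
Log2 level of the 24 genes with a symbol of smallest p (12 in each direction) whose 4 mast-cell-rich and 4 mast-cell-poor arrays do not overlap, minus the midpoint of the 2 group means, with 7 Wsh arrays beside them (points are arrays). None passed an adjusted p of 0.05 between the groups, and the range of the Wsh arrays overlapped both B6 groups in 17 of the 24, the mast-cell-rich group alone in 5 and the mast-cell-poor group alone in 2.

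Array quality overlapped between the groups. The 75th percentile signal ran from 3328 to 5029 in mast-cell-rich and from 3515 to 6406 in mast-cell-poor tumours. Spots well above background made up 55.7%, 56.9%, 65.7% and 58.85% in mast-cell-rich tumours. In mast-cell-poor tumours they made up 73.4%, 68.5%, 62.3% and 56.8%, mostly higher shares apart from replicate 3. The part of this in the differences between the groups was not tested. The number of arrays limits the precision.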

How the data were processed

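Total RNA was amplified with Cy3 and hybridised to 1-colour Agilent arrays, per the labels' protocols, and read with Agilent Feature Extraction 10.7.3.1, per the submitters' processing notes. The intensity analysed is the processed signal, background-subtracted by that program, per the file headers. The authors' deposited log2 table (background step, centring and normalization not given in the sources used here) served as an alternative. The flags for outlier and background are other columns of the same deposited files.

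Each array had 62976 spots, 59305 of them not controls. Outlier spots were left out and spots of a probe averaged, giving 56605 probes. Names came from an accession (32994), symbol (10224) or synonym (520) in a RefSeq table, and 12867 kept the file's name. Probes well above background on at least 4 of 8 B6 arrays were kept (34178), and each gene took its probe of highest mean (22262 genes, Mcpt4 left out). Values are log2 signal minus the array's 75th percentile.

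Testing used limma 3.58.1 under R 4.3.3, two-sided, by lmFit followed by eBayes, with Benjamini-Hochberg adjustment over all genes and a threshold of 0.05. The 4 against 4 fit was checked on simulated data in which genes varied independently. The fit on the Mcpt4 level was not checked in this way. The members, the 40 lists and the tests were chosen with earlier results of these data known. Named genes were every measured mast cell gene, the 12 of smallest p in each direction without overlap (none passed) and up to 4 of each other list by the size of the moderated t. Some called list members outside that rule are named because they were called. Other called members, such as Igfbp6, Pi16, Cxcl9 and Cxcl13, and some lists are not described. A further 11 genes are stated as named after their values were seen. Alternatives were background, scaling, filter, probe averaging, slide, weights, empirical Bayes options, samples in the fit, deposited values, grouping and each array left out. All were run on the comparison of groups. The fit on the Mcpt4 level was repeated only with each array left out. Promoter windows came from RefSeq (GRCm38.p6). Probes of Mcpt4, Cma1 and Cpa3 are not printed.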

Additional observations from a re-analysis of the deposited data

Results flagged for a closer look

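Single arrays stood apart from the others of their group in 55 of 567 gene or list levels tested by the gap to the nearest array (4 mast-cell-rich, 4 mast-cell-poor or 7 Wsh arrays per group), or 9.7%, where chance gives about 1 in 20. The genes and lists overlap and share tissue content, so these are not independent.

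Wsh replicate 1 stood apart 20 times. It was high in Ccl21a (3.63), Cd302 (3.13), Ear6 (-2.62), H2-Aa (3.04), Mmp3 (2.72), Mmp9 (-2.49), Myo1f (0.73), Prrx1 (0.84), Vegfd (0.89) and Zeb1 (-1.05), and low in Grhl2 (1.05), Jun (2.73) and Sox10 (3.33). Its list means were high for mast cell receptors and mediator enzymes (-0.97), eosinophils (-1.34), macrophages (1.89), adventitial fibroblasts (2.70), endothelium (0.71) and mesenchymal transition (0.78), and low for luminal epithelium (2.46). Wsh replicate 2 was high in Ankrd37 (-0.29), Cma2 (-2.29), Gata2 (-0.0392, against -3.75 to -2.87 in the others), Tpsg1 (-6.35) and the means of the keratinocyte (-0.0377) and hypoxia (2.74) lists. Wsh replicate 7 was high in Hspa1a (3.70), and Wsh replicate 3 in the mean of the Met list (0.81).

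Among mast-cell-poor tumours, replicate 1, next to the boundary, was high in Ccl21a (2.44), Cebpa (1.05), Gm5088 (-4.25), Hpse (-1.11), Mmp3 (1.36), Plekha4 (0.16) and the means of the eosinophil (-2.47) and milk gene (1.86) lists, and low in Bnip3 (1.33) and Grhl2 (1.55). Replicate 8 was low in Kit (2.97) and Esam (-0.47), replicate 3 high in Egr2 (0.63), and replicate 5 high in Il20ra (-2.75).

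Among mast-cell-rich tumours, replicate 4 was high in Col26a1 (-1.79), Ear1 (0.0130), Ear2 (1.96), Ear6 (-3.02), H2-DMa (0.44) and the skeletal muscle mean (1.47). Replicate 7 was high in Csn1s2a (2.58), Hdc (-1.31), Kif26a (-2.38) and the keratinocyte mean (-2.0), and low in Ptgs2 (-6.64). Replicate 2 was low in the melanocyte mean (-4.19) and high in the mean of the Met list (0.79).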

How the results depend on the processing

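The count of genes past the threshold, 0 between the 4 and 4 tumours, stayed 0 in 21 other settings of that comparison. Of these, grouping by Cma1 and Cpa3 repeated the same 4 and 4 tumours, and each slide alone held only 2 tumours of each group. The count was 1 without B6 replicate 3 and 503 for the 3 highest against the 3 lowest. On the Mcpt4 level the count was 1155. With each array left out, a check added after seeing the data, it was 572 (without replicate 7) to 1205 (without replicate 3). The fit on the Mcpt4 level was run under none of the other settings. Of 22262 genes, the 3 highest against the 3 lowest did not overlap for 2452 higher and 3435 lower. Groups of 3 separate more easily by chance than groups of 4, so these counts are not comparable with the 748 and 1332. The protease median of 2.31 was 0.80 with no filter and 0.77 with a filter on all 8 arrays. The medians for adipocytes (1.93 to 3.17 with each array left out), fibroblasts (0.74 to 1.04), adventitial fibroblasts (1.20 to 1.72), endothelium (0.33 to 0.60) and luminal epithelium (-0.48 to -0.28) kept their sign. Scaling by the array median moved the median of all genes from -0.06 to -0.14 and the share above 0 from 41.2% to 32%. No paired analysis was possible because both groups lie within B6, where each replicate number occurs once.

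Of 149 genes named, 14 changed sign somewhere, all with an adjusted p over 0.3 between the groups. The cause was not tested. With the probes of a gene averaged, the difference was 0.998 for Dct, 0.378 for Hpgds, 0.239 for Met, -0.134 for Srgn, -0.0818 for Stat5a and 0.0354 for Top2a. For Dct the second probe differed by 2.47, against -0.47 for the probe used. With array median scaling it was -0.00723 for Ctsg, -0.0171 for Mki67, -0.0685 for Ndst2 and -0.0106 for Stat5a, with normexp -0.0169 for Ctsg, with quantile normalization 0.0050 for Kitl and with deposited values 0.0149 for Kitl. Within slide 2 alone it was -0.589 for Ctsg, 0.494 for Hpgds, 0.179 for Isg15, 0.251 for Kitl, -0.141 for Ndst2, -0.291 for Srgn and 0.735 for Tpsb2, and within slide 1 -0.0861 for Ptgs1 and 0.0400 for Top2a. With array weights it was -0.0652 for Ctsg, 0.102 for Hpgds, 0.0817 for Kitl and -0.0042 for Ndst2. In the 3 against 3 comparison it was 0.275 for Hpgds and -0.0225 for Stat5a. The slope on Mcpt4 was 0.0249 for Hpgds, -0.00989 for Mki67 and -0.0328 for Stat5a.

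With each array left out, the difference ran from -0.504 to 0.595 for Ctsg, -0.314 to 0.286 for Hpgds, -0.105 to 0.0535 for Kitl, -0.0940 to 0.206 for Mki67, -0.0625 to 0.0808 for Ndst2 and -0.0454 to 0.219 for Stat5a. The slope ran from -0.0311 to 0.0979 for Hpgds, -0.0313 to 0.0277 for Kitl, -0.0375 to 0.0856 for Mki67, -0.0130 to 0.0512 for Ndst2, -0.00411 to 0.143 for Ptgs1, -0.0592 to 0.0446 for Stat5a, -0.00942 to 0.0267 for Stat5b and -0.232 to 0.177 for Tpsb2.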
